A study of Mus musculus with 6 samples.

Results

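The Gnas domain is an imprinted stretch of mouse chromosome 2 that holds Gnas (gene 14683, GRCm38 174284320 to 174346744) and its antisense gene Gnasas1, also called Nespas (gene 56802, 174281237 to 174295436). Its members here were the CpG cytosines of the domain listed in all 6 libraries, 579 in number, of which 577 lay under a coverage cap and were used, out of 2206320 used across the genome. In the domain 882 cytosines were listed in at least 1 library, and those missing from any library were left aside. The cytosines ran from 174284177 to 174346026, and 562 of them lay inside Gnas and 95 inside Gnasas1, which overlaps it. Mouse male germ cell DNA was profiled by reduced representation bisulfite sequencing, in which cytosines near restriction cuts are read as C when methylated and as T when not. The groups were CSDS, mice exposed to chronic social defeat stress, and Control, with 3 libraries each; the labels give neither strain nor age, nor how many animals made a library, so p-values measure the spread between these libraries.

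Gnas makes several products from separate starts, several of which lie in imprinted stretches. The Nesp start makes a secretory protein from the maternal copy in somatic tissue and is methylated on the paternal copy, a mark laid down after fertilization. Nespas, a noncoding antisense RNA, and Gnasxl, a large form of the G protein alpha subunit, start close together and are made from the paternal copy; the DNA around them is methylated in the oocyte. Exon 1A, the start of a noncoding transcript, is likewise methylated in the oocyte. The Gnas start (exon 1), which makes the stimulatory G protein subunit that couples hormone receptors to cyclic AMP, is unmethylated on both copies in every tissue. In male germ cells, the oocyte marks are known to be absent.

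The DNA behind the measurements is shown here for the Nesp and Gnas starts, the starts of which the printed window held listed cytosines. Sequences are from RefSeq (GRCm38.p6), on the plus strand, and run from the first to the last CCGG, the site cut by MspI, in the 250 bases before each start; capitals mark CpGs listed in all 6 libraries on at least 1 strand. The first lies at chr2:174284176-174284272 and ends 48 bases before the Nesp start, and the second at chr2:174329757-174329947 and ends 59 bases before the Gnas start.
Nesp start: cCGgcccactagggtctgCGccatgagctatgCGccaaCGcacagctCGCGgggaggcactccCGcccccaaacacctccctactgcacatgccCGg
Gnas start: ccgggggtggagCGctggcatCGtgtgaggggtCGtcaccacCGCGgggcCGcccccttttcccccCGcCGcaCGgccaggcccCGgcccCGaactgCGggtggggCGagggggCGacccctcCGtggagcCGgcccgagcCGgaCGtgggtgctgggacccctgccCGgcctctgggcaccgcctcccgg

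The Nesp stretch holds 2 CCGG sites and 8 CpGs, all of them listed. The Gnas stretch, with 6 CCGG sites, holds 23 CpGs, of which 19 were listed. The window of 300 bases at each of 2 annotated exon 1A starts held 27 and 28 CpGs and no CCGG, and none of these CpGs was listed. The nearest listed cytosine lay 73 and 54 bases from those starts. CCGG occurred in 52.8% of all 32851 promoter windows of that length. The motif TGCCGC, the letters recognized in methylated form by the imprint protector Zfp57, was searched on both strands; it was in none of the 4 Gnas windows and in 11.6% of all windows. No cytosine was listed within 500 bp of the upper end of Gnasas1, where the antisense RNA starts, and the nearest lay 793 bp away on the Gnasxl side. The region called Nespas-Gnasxl below is therefore measured on that side alone.

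The 3 imprinted starts and the Gnas start were mostly unmethylated in germ cells of both groups, while the rest of Gnas was methylated. The Nesp start (174284177 to 174287816, 95 cytosines) had mean methylation levels of 20.1%, 14.7% and 14.8% in the CSDS libraries and 19.7%, 19.1% and 18.6% in the Control libraries. Nespas-Gnasxl (174296229 to 174300607, 193 cytosines) had 17.7%, 14.2% and 14.6% in CSDS and 19.9%, 18.3% and 18.4% in Control. Exon 1A (from 174326931, 76 cytosines) had 20.3%, 14.6% and 17.8% in CSDS and 18.6%, 21.7% and 19.6% in Control. These 3 regions lay within a few points of each other in every library, with CSDS replicate 2 the lowest in each. The Gnas start (174329660 to 174330956, 178 cytosines) had 9.58%, 7.49% and 7.12% in CSDS and 11.6%, 12.4% and 11.4% in Control. It was the lowest region in each library. Outside them, 12 cytosines between Gnasxl and exon 1A averaged 94.6% ± 1.45 in CSDS and 93.7% ± 2.26 in Control (SD, n = 3 each). The 21 cytosines of the Gnas body beyond the first kilobases averaged 84.8% ± 3.58 in CSDS and 87.4% ± 4.78 in Control. The last tile there, near the end of the gene, was the least methylated of them, at 59.7% ± 15.5 in CSDS and 72.2% ± 5.15 in Control over 3 cytosines. The 2 cytosines left, 1 CpG between exon 1A and the Gnas start with strands apart, averaged 46.4% in CSDS and 53.2% in Control.

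**Figure D1:**
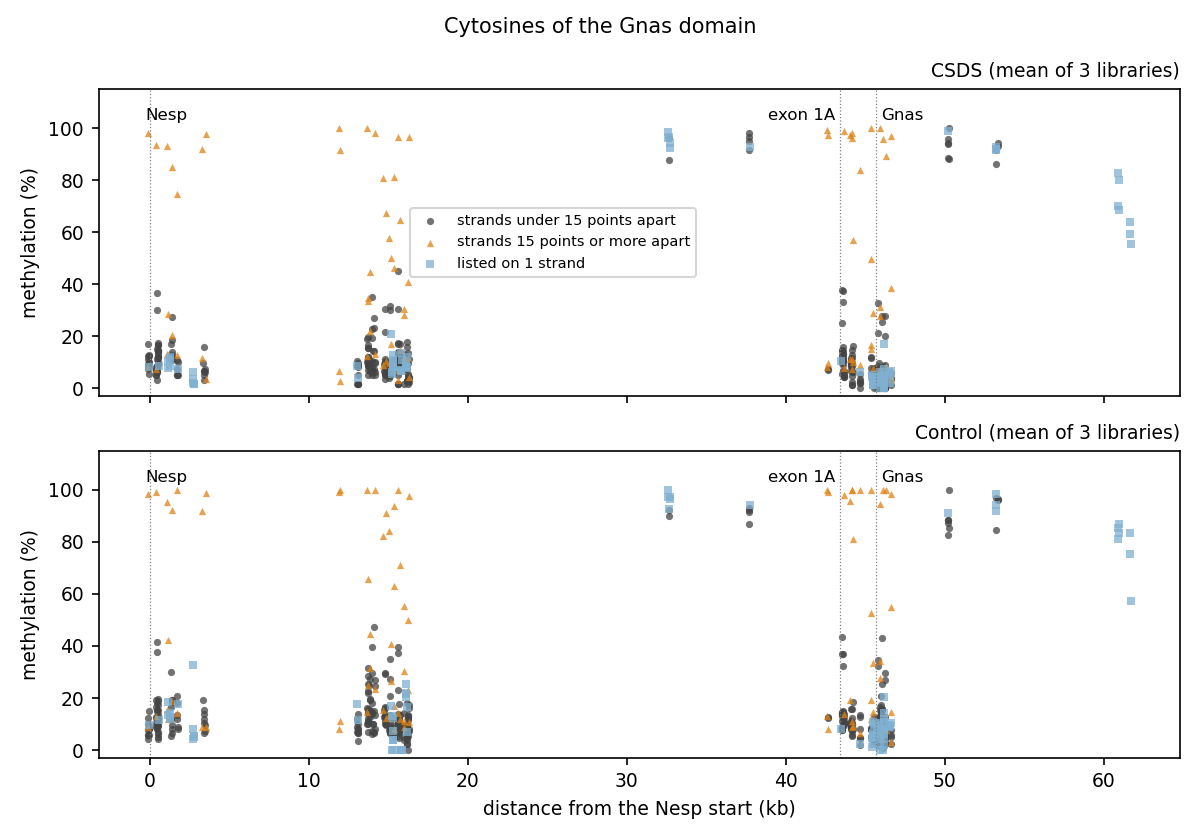
Methylation (percent, vertical axis) of each cytosine against its distance from the Nesp start in kb (horizontal axis), as the mean of 3 CSDS libraries (top) and 3 Control libraries (bottom); dotted lines mark the Nesp, exon 1A and Gnas starts. Most cytosines at the starts lie under 20%, the high ones among them are nearly all triangles (the 2 strands of the CpG at least 15 points apart), and cytosines between Gnasxl and exon 1A (94.6% in CSDS, 93.7% in Control) and most in the Gnas body lie far higher.

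High cytosines at the starts were nearly all on 1 strand of their CpG. Of 542 cytosines in the 4 regions 40 averaged over 40% across libraries, and 38 of these sat in CpGs whose strands differed by at least 15 points. Their median was 95.2%, and the median of their partners on the other strand 10.98% (2.15% to 29.1%). The highest in each region were 174284178 (98.3%) at the Nesp start, 174297979 (100% in all libraries) in Nespas-Gnasxl, 174326932 (99.5%) in exon 1A and 174329661 (100%) at the Gnas start, all on the minus strand. The lowest were 174287052 (3.21%), 174300520 (1.28%), 174328997 (2.54%) and 174330254 (0.794%). The printed Nesp sequence shows 1 case. At its first CCGG the minus-strand cytosine (174284178) read 97.4%, 100% and 96.6% in CSDS and 97.6%, 100% and 98.2% in Control. Its partner on the plus strand (174284177) read 10.4%, 10.6% and 4.55% in CSDS and 12.5%, 14.3% and 0% in Control. The 3 listed CCGG cytosines of that sequence had a median of 8.98%, and the 12 listed outside CCGG averaged between 6.86% and 12.5%. In the Gnas sequence the 5 listed CCGG cytosines had a median of 6.51%, the highest (174329842, minus strand) averaging 31.3%. The 21 outside CCGG averaged 1.79% to 7.70%. The other 2 cytosines over 40%, in CpGs with like strands, were 174299948 (41.1%) in Nespas-Gnasxl and 174327851 (40.6%) in exon 1A, both on the minus strand.

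Across promoters, high cytosines and strands apart were more frequent at CCGG than at other CpGs. In the domain, sequence was at hand only for promoter windows, so whether the other high cytosines lie at CCGG is not known. Of 47309 cytosines at CCGG in the promoter windows of all genes, 31.6% averaged over 40%, against 0.958% of 211960 at other CpGs, and among those listed on both strands 68.1% and 0.368% had strands at least 15 points apart. Cut ends are filled in with free nucleotides when such libraries are made; the part of this step in the levels was not tested. A second set of levels was therefore taken over CpGs listed on both strands with strands under 15 points apart, 384 of the 542 cytosines, a choice made after the data were seen. The 84 in CpGs with strands apart and the 74 on 1 strand alone were left out.

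Without those CpGs the levels of all 4 regions were lower in both groups. The Nesp start stood at 11.1% ± 3.25 in CSDS and 12.7% ± 0.725 in Control, and Nespas-Gnasxl at 10.2% ± 1.99 in CSDS and 13.1% ± 1.39 in Control (SD, n = 3 each). Exon 1A stood at 10.2% ± 3.06 in CSDS and 12.5% ± 1.80 in Control, and the Gnas start at 4.75% ± 1.51 in CSDS and 8.60% ± 0.252 in Control. The SDs of CSDS were the larger in all 4 regions. Promoter CpGs outside CCGG with like strands had the same order, with SDs of 2.36 in CSDS and 0.202 in Control.

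**Figure D2:**
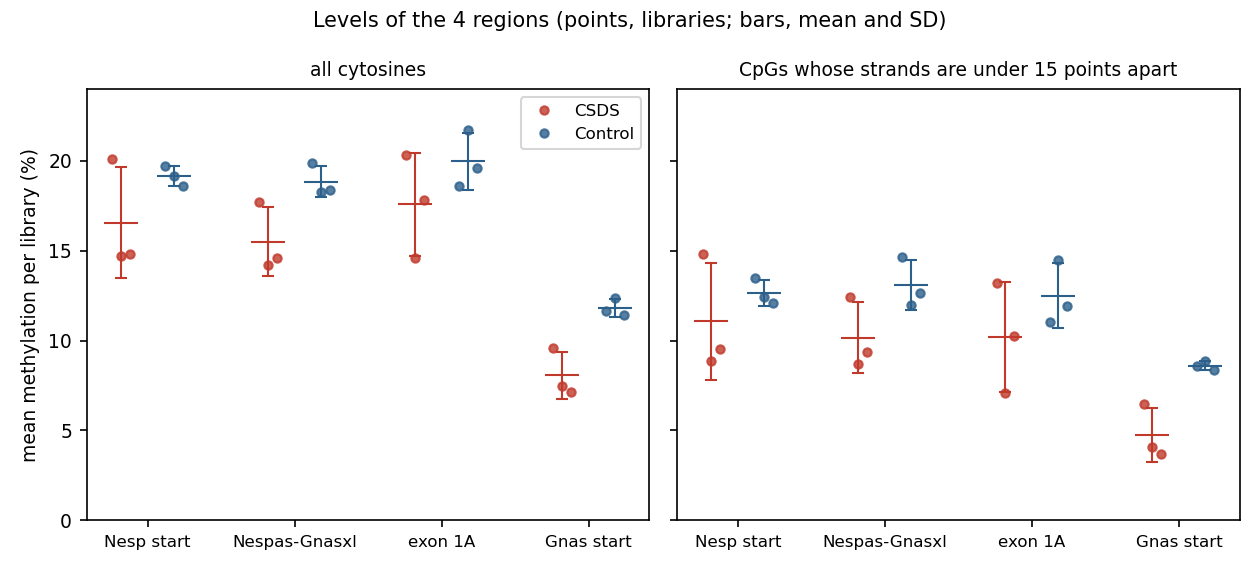
Mean methylation per library (percent, vertical axis) in the 4 regions, CSDS in red and Control in blue, over all cytosines (left) and over CpGs whose strands are under 15 points apart (right); bars are the group mean and SD. The Gnas start is lowest in both panels, and the other 3 regions stand at like levels, 11.1%, 10.2% and 10.2% in CSDS and 12.7%, 13.1% and 12.5% in Control on the right.

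Within a library, each imprinted start stood above the Gnas start. Over all cytosines the Nesp start was higher by 7.91 points ± 1.37, Nespas-Gnasxl by 7.24 ± 0.889 and exon 1A by 8.84 ± 1.68 (SD, 6 libraries), each in 6 of 6 libraries. Each difference had a two-sided exact sign-flip permutation p of 0.031, the smallest 6 libraries can give, and 0.0625 after Benjamini-Hochberg adjustment over 6 region pairs, so none passed 0.05. With the bounds 500 bp narrower the adjusted p was 0.0469 for each. That is no stronger result for these 3 pairs, as their exact p could not fall further. The adjusted value fell because the Nesp start minus exon 1A also reached 0.0469. Over CpGs with like strands the differences were 5.19, 4.95 and 4.66 points, again in 6 of 6 libraries (exact p = 0.031, adjusted 0.0625). Among the imprinted starts, Nespas-Gnasxl differed from the Nesp start by −0.678 points and from exon 1A by −1.60, and the Nesp start from exon 1A by −0.925. The adjusted exact p of these 3 pairs ran from 0.0938 to 0.281, and over CpGs with like strands 2 of the 3 changed sign, to +0.298 for Nespas-Gnasxl and +0.532 for the Nesp start, each minus exon 1A.

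Set against CpGs at promoters across the genome, the 3 imprinted starts were higher, and the Gnas start was close to them or lower. Promoter windows were 300 bases long, while the regions reached farther from their starts. Within 500 bp of a start lay 38 of 95 cytosines at the Nesp start, 33 of 76 in exon 1A and 139 of 178 at the Gnas start. Of the 193 in Nespas-Gnasxl, 0 lay within 500 bp of the upper end of Gnasas1, and distance from the Gnasxl start was not measured. The part of this distance in the excess over promoters, and over the Gnas start, was not tested. Promoter CpGs outside CCGG with like strands (184327 cytosines, none from the domain) averaged 8.001%, 3.76% and 4.10% in CSDS and 8.57%, 8.86% and 8.47% in Control. The Nesp start lay above them by 6.80, 5.10 and 5.44 points in CSDS and by 4.91, 3.55 and 3.63 points in Control. Nespas-Gnasxl lay above by 4.43, 4.95 and 5.24 points in CSDS and by 6.08, 3.12 and 4.19 in Control, and exon 1A by 5.20, 3.32 and 6.14 in CSDS and by 2.48, 5.65 and 3.43 in Control. All 18 of these values were above 0. The Gnas start differed by −1.53, +0.327 and −0.428 points in CSDS and by +0.0346, −0.00134 and −0.117 in Control. The mean excess over the 6 libraries was 4.90 points ± 1.22 for the Nesp start, 4.67 ± 1.01 for Nespas-Gnasxl and 4.37 ± 1.49 for exon 1A (SD; exact sign-flip permutation p = 0.031, 0.0417 adjusted over the 4 regions). For the Gnas start it was −0.285 ± 0.655 (exact p = 0.344). CCGG could be left out of the promoter set alone, because sequence was at hand only for promoter windows, so the regions kept some CCGG cytosines. With CCGG kept in the promoter set as well (197026 cytosines with like strands), the excess was 3.25 points ± 1.23 for the Nesp start, 3.02 ± 1.00 for Nespas-Gnasxl and 2.72 ± 1.496 for exon 1A, above 0 in 6 of 6 libraries. The Gnas start was then lower than promoters in 6 of 6 libraries, at −1.94 ± 0.636 (exact and adjusted p = 0.031 for all 4 regions). The Nesp excess was the one in which the groups did not overlap, with a mean of 5.78 points in CSDS and 4.03 in Control, a difference of +1.75 (exact permutation p = 0.1, the smallest that 3 against 3 libraries can give). With CCGG kept in the promoter set it was +1.78 (exact permutation p = 0.1). With CpGs whose strands were apart also kept in both sets, the groups overlapped, at 5.70 points in CSDS and 4.88 in Control (+0.824, exact permutation p = 0.3).

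**Figure D3:**
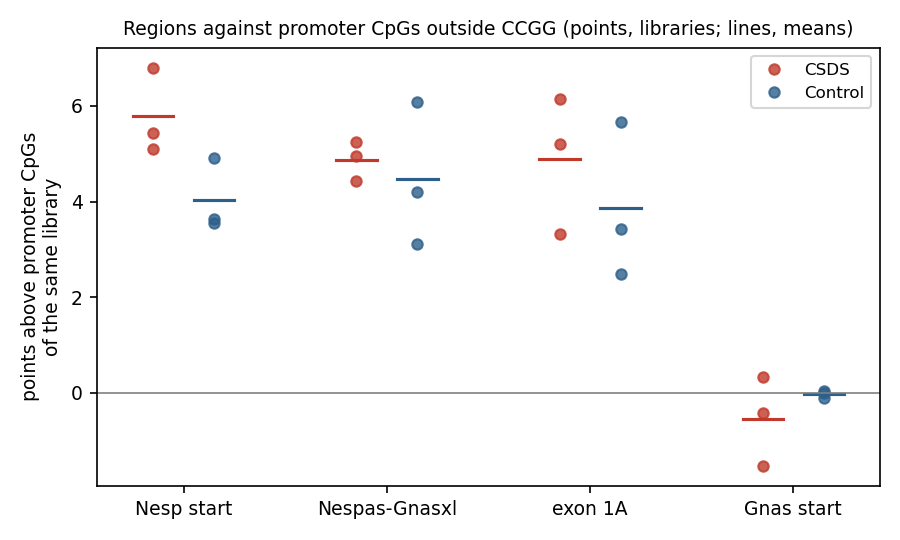
Methylation of each region minus that of promoter CpGs outside CCGG in the same library (points, vertical axis), over CpGs with like strands; dots are libraries (CSDS red, Control blue) and lines group means. The 3 imprinted starts lie between 2.48 and 6.80 points above promoters in all 6 libraries, and the Gnas start within 1.53 points of them.

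The 3 imprinted starts stood among the maternally methylated control regions of other genes. H19 and Meg3, paternally methylated and so methylated in male germ cells, averaged 95.0% and 96.2% in CSDS and 97.9% and 98.0% in Control, the pattern known for male germ cells. These levels rest on few cytosines lying close together, 4 at H19 and 9 at Meg3. No cytosine was listed within the bounds used for Rasgrf1. Of 14 maternally methylated control regions placed, 13 had at least 3 cytosines in CpGs with like strands (Snrpn, at 16.9% in CSDS and 28.5% in Control over all its cytosines, had 2), and over these CpGs they averaged between 9.37% and 14.6% across libraries. The Nesp start (11.9%), Nespas-Gnasxl (11.6%) and exon 1A (11.3%) lay inside that range and the Gnas start (6.67%) below it. This holds for means over libraries. In single libraries some control regions lay below the Gnas start, such as Peg10 in Control replicate 2 (4.66% against 8.85%) and Peg3 in CSDS replicate 2 (3.06% against 4.09%). Over all cytosines, the control regions closest to the Nesp start in the 6 libraries were those of Nap1l5, Zrsr1 and Kcnq1ot1, with root mean square differences of 1.66, 2.14 and 2.39 points. Closest to Nespas-Gnasxl were Nap1l5 (1.501), Kcnq1ot1 (1.78) and Plagl1 (2.07), and to exon 1A Zrsr1 (1.94), Nap1l5 (2.72) and Mcts2 (2.81). Over CpGs with like strands the order changed. Closest were then Nap1l5 (1.58), Plagl1 (2.28) and Peg13 (2.33) to the Nesp start, Nap1l5 (1.68), Peg13 (2.09) and Kcnq1ot1 (2.14) to Nespas-Gnasxl, and Peg13 (1.66), Nap1l5 (1.98) and Igf2r (2.30) to exon 1A. Nap1l5 was in the first 3 each time.

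Social defeat was set against Control to see whether it alters this pattern. All 4 starts had lower means in CSDS as deposited, and promoters across the genome did too. The difference was −2.61 points at the Nesp start (16.5% ± 3.09 in CSDS, 19.2% ± 0.567 in Control, exact permutation p = 0.4) and −3.35 at Nespas-Gnasxl (15.5% ± 1.92 in CSDS, 18.8% ± 0.879 in Control, exact p = 0.1). It was −2.38 at exon 1A (17.6% ± 2.87 in CSDS, 19.97% ± 1.58 in Control, exact p = 0.3) and −3.75 at the Gnas start (8.06% ± 1.33 in CSDS, 11.8% ± 0.4995 in Control, exact p = 0.1). The groups did not overlap at Nespas-Gnasxl and the Gnas start and overlapped through CSDS replicate 1 at the other two. Over CpGs with like strands Nespas-Gnasxl overlapped as well (−2.93 points, exact p = 0.2), and the Gnas start stood at −3.86 points beside −3.34 for promoters (5.29% ± 2.36 in CSDS, 8.63% ± 0.202 in Control, exact p = 0.1 each). The share of mitochondrial CpG reads showing C, taken here as a measure of unconverted cytosine, moved the same way. Its median over 27 mitochondrial cytosines was 8.50%, 4.41% and 4.53% in CSDS and 8.90%, 8.84% and 10.04% in Control. After correction for it the differences were +0.516 points at the Nesp start, −0.281 at Nespas-Gnasxl, +0.712 at exon 1A and −0.437 at the Gnas start, with exact p from 0.6 to 0.8.

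Differences between 2 regions of the same library, from which a shift common to both drops out, did not separate the groups. The excess of exon 1A over the Gnas start was 9.52 points ± 2.08 in CSDS and 8.15 ± 1.17 in Control, a difference of +1.37 (exact permutation p = 0.3). The excess of the Nesp start was 8.49 ± 1.79 in CSDS and 7.34 ± 0.690 in Control (+1.14, exact p = 0.4). That of Nespas-Gnasxl was 7.44 ± 0.709 in CSDS and 7.03 ± 1.16 in Control (+0.402, exact p = 0.7), and without Control replicate 2 it was −0.162.

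In tiles of 500 bp, 24 of the domain's 28 tiles had a lower CSDS mean, where 73.7% of all 162809 tiles tested did. The groups did not overlap, with CSDS lower, in 7 tiles (16.3% of all tiles) and, with CSDS higher, in 0 (1.82%). The median tile difference was −3.13 points in the domain and −1.82 over all tiles. All tiles include highly methylated ones, while most domain tiles lie at the starts. Promoter CpGs outside CCGG with like strands differed by −3.34 points, a difference of means over cytosines and not a tile median. No tile of the domain passed an adjusted p of 0.05 with 10 points by a quasi-binomial F test (dispersion moderated with limma), nor did any tile of the genome (0% called, with 15.6% at an unadjusted p under 0.05, 7 of them in the domain). limma on log ratios likewise called 0. With all libraries in, the lowest adjusted p in the domain by that F test was 0.174, in both named tiles of the Gnas start.

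At the Gnas start, all 3 tiles kept the groups apart, as did the mean of promoter CpGs across the genome (outside CCGG, like strands). The tile from 174330001 (5075 to 6798 reads a library) had 7.83%, 4.29% and 5.15% in CSDS and 10.7%, 9.09% and 9.19% in Control, a difference of −3.90 points, and the one from 174330501 differed by −3.57. In Nespas-Gnasxl the tile from 174298001 (44 cytosines) had 17.4%, 11.5% and 15.8% in CSDS and 22.2%, 19.7% and 19.7% in Control, with the groups apart (−5.59 points, F test adjusted p = 0.185). The highest tile of that region, from 174296001, stood at 24.7% ± 4.38 in CSDS and 32.2% ± 4.12 in Control over 4 cytosines, all in CpGs with strands apart. The lowest, from 174297001, stood at 5.84% ± 2.58 in CSDS and 9.21% ± 2.54 in Control.

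At the Nesp start the tile from 174287001 (5 cytosines, all on the plus strand) was the lowest and the farthest apart. It had 1.73%, 5.15% and 2.11% in CSDS and 8.15%, 15.8% and 10.3% in Control (−8.41 points, F test adjusted p = 0.272). Its coverage summed over cytosines was 57 to 330 a library, with a read counted at each cytosine it spans. The tiles from 174285001 and 174286001 differed by −6.22 and −6.30 points with overlapping groups. In the tile from 174285001, 0 of 6 cytosines lay in CpGs with like strands. In exon 1A the tiles ran from 22.5% (from 174326501, mean of 6 libraries) down to 9.78% (from 174328501). Their differences lay between −0.861 and −4.28 points, and the groups overlapped in all 4.

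**Figure D4:**
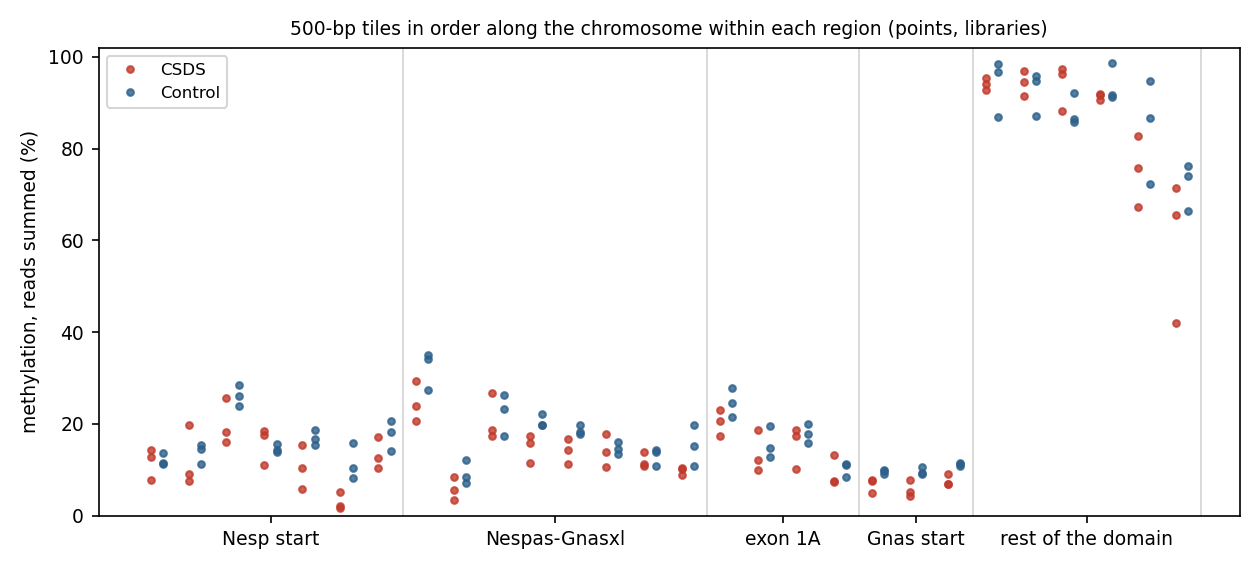
Methylation of each 500-bp tile (percent of summed reads, vertical axis), tiles in order within each region (horizontal axis); dots are libraries, CSDS red on the left of each tile and Control blue on the right. Tiles of the 4 starts lie under 36%, those of the Gnas start under 12%, and the rest of the domain above 40%.

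Among single cytosines, 70 of the 577 (12.1%) had all CSDS values below all Control values and 12 (2.08%) had them above, where 10.6% and 1.74% of all cytosines tested were. A lower CSDS mean was found at 69.5% in the domain and 68.6% across the genome. None was called (0% of 2182877 tested) by the quasi-binomial F test, and 78 of the domain's had an unadjusted p under 0.05, where 10.8% of all did. Of those with groups apart, the largest differences were at 174298019 in Nespas-Gnasxl and at 174287017 near Nesp. Cytosine 174298019 read 46.2%, 31.9% and 25.9% in CSDS and 52.4%, 70.0% and 74.4% in Control (−30.9 points, F test adjusted p = 0.159). The strands of its CpG were 21.0 points apart. Its partner on the other strand, at 33.4% in CSDS and 24.8% in Control, differed the other way (+8.52 points). Cytosine 174287017 read 2.94%, 4.48% and 3.51% in CSDS and 26.3%, 50% and 21.4% in Control over 12 to 67 reads. The 4 other cytosines of its tile averaged 3.21% to 7.11%. The next, 174286030, differed by −25.5 points over 12 to 18 reads, and its strands were apart. The higher ones were 174334542 in the Gnas body (+13.4 points), 174300129 in Nespas-Gnasxl (+13.3) and 174284208 in the printed Nesp sequence (+12.6). The last read 20%, 16.7% and 13.6% in CSDS and 7.84%, 4.76% and 0% in Control, and its partner on the other strand, at 9.10% in CSDS and 12.4% in Control, differed the other way.

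Genes around the domain were taken from a list of 8 (Npepl1, Stx16, Nelfcd, Ctsz, Tubb1, Atp5e, Slmo2 and Zfp831), of which Stx16 is known in human for deletions that disturb the exon 1A imprint. Tiles within 1 kb of their ends numbered 20, with none at Tubb1, and 15 had a lower CSDS mean. Their median difference was −3.04 points, and 0 were called. At Npepl1 and Stx16, the listed neighbours below the domain, the lowest tiles stood at 9.20% and 9.36%.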

How the data were processed

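Trim Galore 0.5.0, Bismark 0.20.0 and the build GRCm38 are named in the submitters' processing notes. Per the file headers, the deposited tables hold, for each cytosine, a read count and the percent of C and of T calls; percent times count was whole to within 1e-06. No position under 10 reads is listed. Domain cytosines had a median coverage of 50 to 64 reads per library. Coverage summed over them was 32196 to 38622 per library, with a read counted at each cytosine it spans. Reads came without molecular identifiers, so counting precision understates the error. Duplicate handling and conversion rate are not given in the sources used here.

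Cytosines listed in all 6 libraries were used, without the top 0.1% of coverage in any library; strands were kept apart. Region levels weight cytosines equally. Region bounds were approximate known positions. Region values were compared by exact permutation tests over libraries. Counts in 500-bp tiles with at least 3 cytosines, and in cytosines, were fitted genome-wide by a binomial logistic model with dispersion moderated as in limma 3.58.1's squeezeVar and held at 1 or above, an F test and Benjamini-Hochberg adjustment, with calls needing 10 points beside an adjusted p under 0.05; the code was tested on simulated data. Features at 0 or 100% throughout were not tested. Python 3.11.15, numpy 2.4.6 and scipy 1.17.1 were used. Gene ends and promoter windows are RefSeq's (GRCm38.p6).

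Named tiles are, per region, the highest, the lowest and the 2 of largest difference; named cytosines are the highest and lowest per region and the 3 each way of largest difference with groups apart. Alternatives were a coverage minimum of 20, summed reads, other bounds, no cap, corrections for non-conversion, shifted tiles, a replicate block, and each library left out. The members, regions and lists were chosen with earlier results of these data known; comparisons by strand and with promoter CpGs were added after the data were seen.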

Additional observations from a re-analysis of the deposited data

How the results depend on the processing

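With reads corrected for non-conversion, CSDS minus Control turned positive at the Nesp start (+0.516 points with the mitochondrial share, +0.925 with the share at the Gnas start), at exon 1A (+0.712 and +1.12) and, with the Gnas start share, at Nespas-Gnasxl (+0.121); in each case exact p was 0.6 or above. Under the other alternatives the differences stayed negative. Leaving out each library gave −4.39 to −1.69 points at the Nesp start, −4.45 to −2.70 at Nespas-Gnasxl, −3.76 to −0.896 at exon 1A and −4.51 to −3.28 at the Gnas start, and for the excess over the Gnas start +0.117 to +1.78 (Nesp), −0.162 to +0.9989 (Nespas-Gnasxl) and +0.754 to +2.57 (exon 1A). The Nespas-Gnasxl excess was −0.155 with a coverage minimum of 20.

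Within a library, bounds 500 bp narrower gave 7.88, 8.21 and 10.2 points above the Gnas start for the Nesp start, Nespas-Gnasxl and exon 1A, and −2.35 for the Nesp start minus exon 1A, each at an adjusted exact p of 0.0469. The order of the imprinted starts changed sign with the setting. The Nesp start minus exon 1A was +2.19 with a coverage minimum of 20, +0.532 over CpGs with like strands and +1.08 with medians. Nespas-Gnasxl minus exon 1A was +0.247 with reads summed and +0.687, +0.298 and +0.739 under those settings, and Nespas-Gnasxl minus the Nesp start was +1.29 with reads summed and +0.327 with narrower bounds; the cause was not tested. Leaving out each library gave 7.39 to 8.15, 7.04 to 7.50 and 8.46 to 9.21 points over the Gnas start, and −1.33 to −0.510, −2.17 to −1.24 and −0.839 to −0.330 for these 3 pairs. The excess over promoters was 4.52 to 5.17 (Nesp start), 4.39 to 4.98 (Nespas-Gnasxl), 4.02 to 4.75 (exon 1A) and −0.407 to −0.0369 (Gnas start). There 5 libraries cannot reach an exact p of 0.05. With CpGs whose strands were apart kept in, the Gnas start stood at +2.90, but against promoter CpGs without CCGG, so that CCGG cytosines stood on the region's side alone. With CCGG in both sets it was −1.94 over CpGs with like strands and −2.62 over all CpGs, each at an adjusted exact p of 0.031; all these settings were chosen after the data were seen.

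Called tiles across the genome numbered 4 with the mitochondrial correction and 0 to 2406 with a library left out, the highest without CSDS replicate 1. Of these, 0 were in the domain. Without CSDS replicate 1, 9 domain tiles had an F test adjusted p under 0.05 (lowest 2.49e-05) but differed by under 10 points. Across the genome 42277 of 162809 tiles then had an unadjusted p under 0.05. The CSDS libraries left have a low mitochondrial share, whose part in these counts was not tested. Genome-wide, called cytosines numbered 3 with a coverage minimum of 20 and 203 with strands summed (domain calls not counted). The exon 1A tile from 174328501 was at +1.87 points with the mitochondrial correction. Left-out libraries moved it from −2.76 to +0.178, and the tile from 174328001 from −4.14 to +0.196. Same-numbered libraries share just a number: deviations correlated at −0.0404, −0.0490 and 0.00941. With a replicate block 0 tiles were called and region differences were as before, −2.61 at the Nesp start (exact sign-flip p = 0.5).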
